A study of Mus musculus with 4 samples.

Results

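The leukocyte integrins described here are 10 genes: Itgal, Itgam, Itgax and Itgb2, which form the β2 integrins of white blood cells, Itga4, Itga6 and Itgb1, whose products pair into β1 integrins, and Itgav, Itgb3 and Itgb5, which form vitronectin receptors. They were taken by name, and all of their probe sets with values were used, 16 of 10649 on the array. An integrin is a surface receptor made of an α chain and a β chain, and it works as an adhesion molecule only when both are made. Talin and kindlin bind the tail of the β chain from inside the cell and switch the receptor to its high-affinity form. In monocytes and macrophages integrins carry out arrest on the vessel wall, spreading on matrix and uptake of complement-coated and dying cells.

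RNA was measured in thioglycollate-elicited peritoneal macrophages of mice on a mixed 129/SV and C57BL/6 background, 2 arrays from PPARg WT and 2 from PPARg KO cells, called WT and KO below. Thioglycollate is an irritant that draws monocyte-derived macrophages into the peritoneum; the cells were collected 3 days after injection, plated, washed after 5 h and then held for 24 h in medium with 0.5% serum, and no group received a ligand. The labels do not describe the deleted part of Pparg, the method of deletion, or whether separate mice gave the arrays of each genotype, so p-values measure the spread between arrays, which may be technical. In the fit reported, that spread is pooled over probe sets of like brightness and is not each probe set's own. The comparison asks which integrin transcripts differ when PPARγ, a lipid-activated nuclear receptor, is missing from otherwise untreated macrophages.

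Signals are the deposited intensities, given in the order WT replicate 1, WT replicate 2, KO replicate 1, KO replicate 2. A probe set is a group of short probes read as 1 value, and its signal cannot be compared with that of another probe set. Log2 fold changes are KO minus WT after adding 16 to each signal, with adjusted p-values from limma over all 6389 probe sets above a signal filter. Of the 16 integrin probe sets, 9 passed that filter, for 7 of the 10 genes. The other 7 were dim, and their values come from the same fit without the filter. Dim means here a signal under about 111. The medians of the antisense controls, probes that should find no target, ran from 104 to 116 on the 4 arrays. The Pparg probe set read 61.1, 73.1, 43.0 and 40.6, below the antisense median on all 4 arrays, so that no fold is given; both KO arrays were below both WT arrays (adjusted p = 0.00012 in the limma fit without a filter). Of 12 macrophage markers all 12 were tested, none was below the antisense median on all arrays, and their summed signal was 42790 to 43606.5 in WT and 41138 to 46841 in KO. 1 of them fell in KO, the phagocytic receptor gene Mertk (225.6, 233.4, 134.7 and 150.5, limma adjusted p = 1.37e-06). After quantile normalization 3 fell and 1 rose, with a replicate block 2 fell, and without moderation 0 fell. The count also changed without KO replicate 2. Adgre1, which encodes F4/80, read 1429 and 1421 in WT and 1063 and 1213 in KO (adjusted p = 0.46), and it passed in 3 of 14 settings, at 0.029 after quantile normalization.

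The α chain of LFA-1 was the 1 integrin transcript that passed the test, and it was lower in KO. Itgal (probe set 94764_at), which encodes the chain αL of this lymphocyte and monocyte integrin, read 272.8, 302.4, 191.0 and 193.7. Both KO arrays lay well below both WT arrays, and the KO arrays differed by under 3 units. The mean fell from 288 ± 20.9 to 192 ± 1.91 (SD, n = 2), which is 1.46-fold on the log2(signal + 16) scale (log2 fold change -0.54, SE 0.12, limma adjusted p = 0.00023). Its 95% interval ran from -0.77 to -0.31. The fall ranked 90th from the lower end of 6389 tested probe sets. Among the 9 integrin probe sets tested, 1 fell, 0 rose and 8 did not pass, and 2 of the 9 had an unadjusted p under 0.05 in limma, as did 605 of all 6389. Over all tested probe sets 3.55% passed, 2.54% as falls, which is 65 higher and 162 lower (170 and 249 after quantile normalization). In bulk RNA, fewer cells that express a gene and less RNA per cell cannot be told apart.

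Itgal's fall kept its sign in all 14 alternative settings and its side of the threshold in 12. With WT replicate 2 left out it was -0.47 (SE 0.17, limma adjusted p = 0.35). Without moderation, where each probe set has only its own 2 arrays per group to estimate its spread, adjusted p was 0.78 and no probe set on the array passed. At 1.46-fold it is also below a threshold of 1.5-fold.

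**Figure D1:**
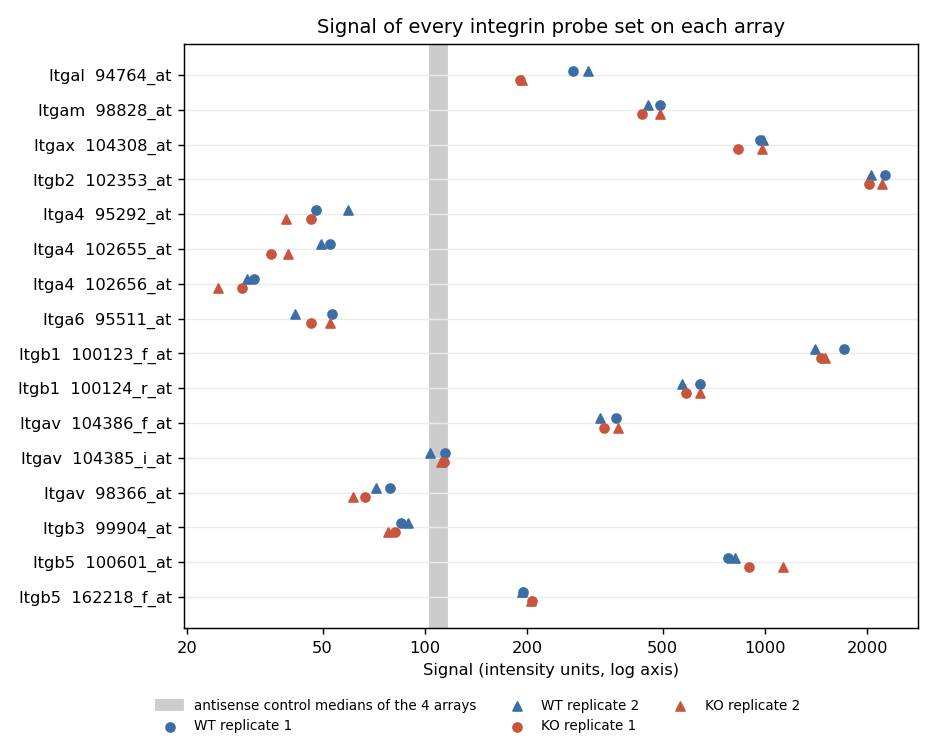
Signal of the 16 integrin probe sets (rows) on each array, on a log axis in intensity units. Circles are replicate 1 and triangles replicate 2 of WT (blue) and KO (red), and the grey band spans the antisense control medians (104 to 116). The Itgal points of KO (191.0 and 193.7) lie left of those of WT (272.8 and 302.4), while the points of Itgam, Itgax, Itgb2 and Itgb1 overlap.

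The chains that share a receptor family with αL did not pass. Itgb2 encodes β2, also known as CD18, the partner of αL, αM and αX. Its signals were 2257, 2056, 2026 and 2205, and the genotypes overlapped. The log2 fold change was -0.03 (95% interval -0.34 to 0.28, limma adjusted p = 0.9997). Itgam encodes αM, or CD11b, which with β2 makes complement receptor 3. It read 490.7, 454.3, 434.6 and 490.0, again with overlap, for a log2 fold change of -0.03 (95% interval -0.31 to 0.24, adjusted p = 0.9997). Itgax encodes αX, or CD11c, found on dendritic cells and on many activated macrophages. Its signals were 970.8, 985.7, 835.3 and 979.6, with overlap, and KO replicate 1 was the lowest. KO replicate 2 was 0.23 above KO replicate 1 on the log2 scale. Probe sets of the same signal decile were higher there by a median of 0.21. The Itgax log2 fold change was -0.11 (95% interval -0.42 to 0.19, adjusted p = 0.9997). These intervals still allow KO levels of 0.79 to 1.22 times WT for Itgb2, 0.81 to 1.18 times for Itgam and 0.75 to 1.14 times for Itgax. Signs of the 3 differences turn when single arrays are left out.

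Setting Itgal against its partner on the same array uses the same values again, so it is not further evidence of the fall. The log2 difference of Itgal minus Itgb2 was -2.98 and -2.70 in WT and -3.30 and -3.40 in KO, a shift of -0.51. Both KO values lay below both WT values. For Itgam minus Itgb2 the values were -2.17, -2.14, -2.18 and -2.13, which overlap, with a shift of -0.005. For Itgax minus Itgb2 they were -1.20, -1.05, -1.26 and -1.16, a shift of -0.08, also with overlap. Within an array such differences show unequal change only, and with 2 arrays per group an exact permutation test cannot go below p = 0.33.

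Itgam and Itgax lie beside each other on mouse chromosome 7, with 1 annotated gene between them in the GRCm38.p6 gene table, and 50 annotated genes separate Itgal from Itgam on the same chromosome. The promoters of Itgam and Itgax are shown because these neighbouring α chains are textbook targets of PU.1, the ETS factor encoded by Spi1 that drives many myeloid genes. Each sequence is from RefSeq (GRCm38.p6, plus strand) and runs from 250 bases before the gene start to 50 after it, at chr7:128062390-128062689 for Itgam and chr7:128129300-128129599 for Itgax. Capitals mark GAGGAA, the core of the PU.1 motif, on either strand (TTCCTC on the strand shown).

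Itgam: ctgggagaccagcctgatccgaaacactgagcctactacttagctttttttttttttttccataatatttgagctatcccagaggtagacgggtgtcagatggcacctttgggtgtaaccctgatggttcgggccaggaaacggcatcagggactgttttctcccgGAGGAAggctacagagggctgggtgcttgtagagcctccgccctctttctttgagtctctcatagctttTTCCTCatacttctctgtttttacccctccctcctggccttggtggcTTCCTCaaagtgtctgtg
Itgax: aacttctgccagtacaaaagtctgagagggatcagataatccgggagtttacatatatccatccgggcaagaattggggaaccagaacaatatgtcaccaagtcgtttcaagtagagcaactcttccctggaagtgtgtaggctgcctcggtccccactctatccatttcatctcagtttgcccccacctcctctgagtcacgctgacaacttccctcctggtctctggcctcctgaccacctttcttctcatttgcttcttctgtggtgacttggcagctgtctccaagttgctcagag

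The Itgam promoter held 3 matches, beginning 84 and 15 bases before and 32 bases after the gene start, and the Itgax window held 0. Promoters were matched for 6 of the 10 genes, and those of Itgal, Itgb2, Itga6 and Itgb3 were not used here. Of the 6, 3 held GAGGAA (Itgam, Itgb1 and Itgav), against 28.3% of all 32851 promoters of that length in the table. The nuclear receptor half-site AGGTCA was in 0 of the 6 and in 16.3% of all. The pair of such half-sites spaced by 1 base, the arrangement bound by PPAR and RXR, was in 0 of the 6 and in 0.0396% of all. No match says only that these letters are not in these windows. Spi1 itself read 1055, 1212, 987.4 and 1163, with overlapping genotypes (log2 fold change -0.08, limma adjusted p = 0.9997).

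The β1 family gave no passing probe set. Itgb1 encodes β1, the most widely shared β chain, which serves receptors for fibronectin, laminin and VCAM-1. Its probe set 100123_f_at read 1703, 1403, 1463 and 1501 (log2 fold change -0.06, 95% interval -0.37 to 0.25, limma adjusted p = 0.9997). Both KO arrays lay between the WT arrays. The second probe set, 100124_r_at, read 644.7, 570.3, 585.1 and 643.8, with a log2 fold change of 0.02 (95% interval -0.27 to 0.31). The suffix f marks probes that may also bind related transcripts. Here too both KO arrays lay between the WT arrays.

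Itga4 was dim on this array. It encodes α4, which with β1 forms VLA-4, a receptor for VCAM-1 and fibronectin. Its 3 probe sets were below the antisense median on all 4 arrays, so no fold is given. Probe set 102655_at read 52.5, 49.4, 35.2 and 39.5, with both KO arrays lower (limma adjusted p = 0.063 in the fit without a filter). Probe set 95292_at read 47.8, 59.6, 46.2 and 39.1 (adjusted p = 0.29). Probe set 102656_at read 31.5, 30.0, 29.0 and 24.6 (adjusted p = 0.86). In all 3 the KO arrays lay below the WT arrays, and none passed. The arrays of the genotypes do not overlap, in either direction, for 35.2% of all 10649 probe sets. Itga6, which encodes the laminin receptor chain α6, was as dim, at 53.4, 41.6, 46.2 and 52.6, with overlap (adjusted p = 0.9994). Of the 7 dim integrin probe sets 0 passed and 2 had an unadjusted p under 0.05 in limma; in that fit 3.11% of 10649 probe sets passed.

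**Figure D2:**
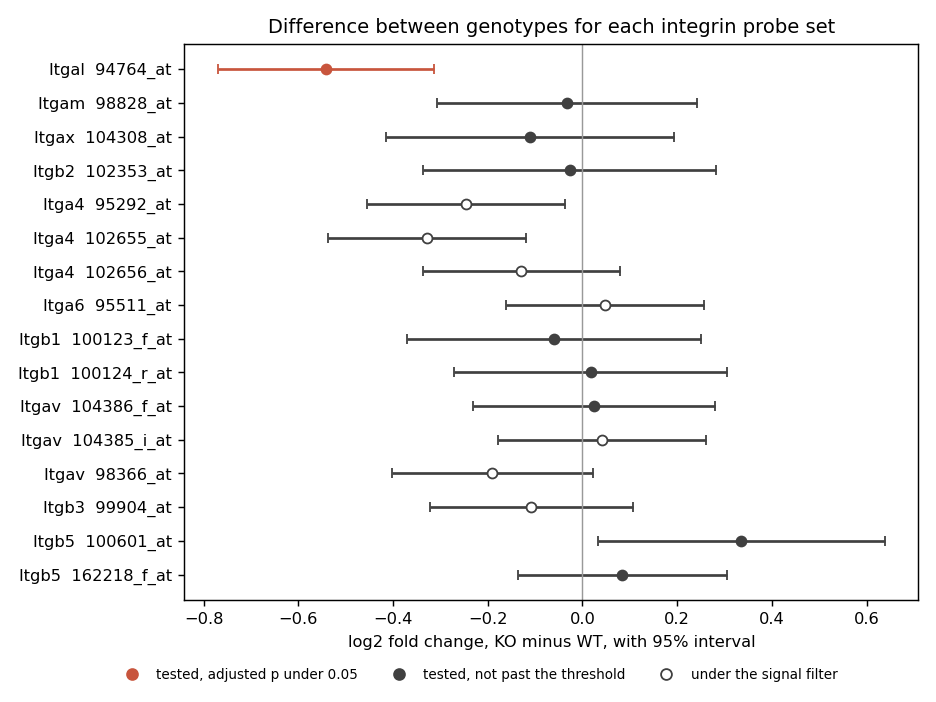
Log2 fold change (KO minus WT) of each integrin probe set with its 95% interval from limma, on the log2(signal + 16) scale. Filled points passed the signal filter, open points did not and lie at or below the level of the antisense controls, and red marks an adjusted p under 0.05. Open points are not read as folds of RNA. Itgal is the 1 red point, at -0.54; Itgb5 probe set 100601_at lies farthest to the right, at 0.34.

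The vitronectin receptor chains gave the largest positive difference among the integrins, without passing. Itgb5 encodes β5, which with αV binds vitronectin and takes part in the uptake of dying cells and in the activation of TGF-β. Probe set 100601_at read 777.9, 814.6, 897.9 and 1133. Both KO arrays were higher, by very different amounts, so the KO mean was 1016 ± 166 against 796 ± 26.0 in WT (SD, n = 2). The log2 fold change was 0.34 (SE 0.15, 95% interval 0.03 to 0.64, limma adjusted p = 0.40). It ranked 97th from the upper end of 6389 probe sets. On the log2 scale this probe set was 0.33 higher in KO replicate 2 than in KO replicate 1, where probe sets of the same signal decile were higher by a median of 0.21. Without KO replicate 1 the value was 0.50 with adjusted p = 0.015, and without KO replicate 2 it was 0.17 with adjusted p = 0.67. After quantile normalization it was 0.37 with adjusted p = 0.0035. With a replicate block it passed as well (adjusted p = 0.019), so a call for Itgb5 depended on the arrays kept, the scaling and the block.

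The other Itgb5 probe set, 162218_f_at, read 194.1, 193.2, 207.0 and 205.5. The KO arrays were again both higher, but by little, with a log2 fold change of 0.08 (95% interval -0.14 to 0.30, adjusted p = 0.9997). Itgav encodes αV, the partner of β3 and β5. Its bright probe set 104386_f_at read 366.1, 327.7, 335.9 and 369.7, with overlap and a log2 fold change of 0.02 (95% interval -0.23 to 0.28, adjusted p = 0.9997). Probe set 104385_i_at lay at the level of the antisense controls, at 114.6, 103.8, 113.7 and 111.6. Probe set 98366_at was below them on all arrays, at 78.8, 71.8, 66.6 and 61.4 (adjusted p = 0.60). Of the 3 Itgav probe sets, only the first was clearly above background. By its suffix f, its probes may also bind related transcripts, as may those of Itgb5 162218_f_at.

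Itgb3 encodes β3, the chain of the αVβ3 receptor and of the platelet fibrinogen receptor. Its probe set read 85.3, 89.2, 81.6 and 78.0, below the antisense median on all arrays, with both KO arrays lower by a little (adjusted p = 0.93). Across the 16 integrin probe sets the KO arrays lay wholly below the WT arrays in 6, wholly above in 2 and overlapped in 8. Of the 6, 5 were below the antisense median on all arrays (the 3 of Itga4, Itgav 98366_at and Itgb3), and 1, Itgal, was above it. Arrays do not overlap for 35.2% of all 10649 probe sets.

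**Figure D3:**
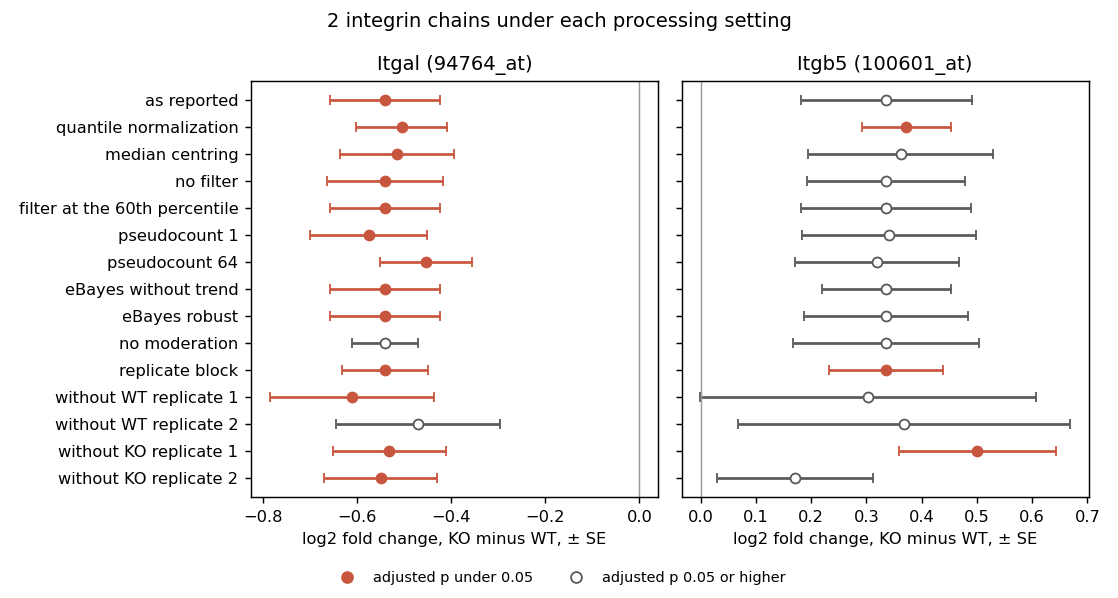
Log2 fold change (KO minus WT) ± SE of Itgal and of the brighter Itgb5 probe set as reported and under each of 14 alternative settings. Red filled points have an adjusted p under 0.05. Itgal ranges from -0.61 to -0.45 and loses its call without WT replicate 2 and without moderation; Itgb5 ranges from 0.17 to 0.50 and gains one after quantile normalization, with the replicate block and without KO replicate 1.

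Among integrin ligands and counter-receptors, the ligand of LFA-1 was the 1 that fell. Icam1 encodes ICAM-1, an immunoglobulin-like surface protein bound by αLβ2 and αMβ2. It read 443.2, 422.4, 212.4 and 230.7, and the KO arrays lay far below both WT arrays. The fold was 1.89 (log2 fold change -0.92, SE 0.13, limma adjusted p = 7.24e-11), and it passed without any single array. Of 37 genes on the ligand list, 15 were tested, of which 1 fell, 0 rose and 14 did not pass (3 at an unadjusted p under 0.05 in limma), with a median log2 fold change of 0.007. Over all 5002 tested genes 2.66% fell and 1.06% rose, 473 had an unadjusted p under 0.05 in limma, and the median was -0.02. Of the other LFA-1 ligands tested, F11r, which encodes JAM-A, read 108.8, 100.2, 119.0 and 129.4, with both KO arrays higher (log2 fold change 0.22, adjusted p = 0.52). F11r was below the antisense median in WT replicate 2 and under the highest antisense control on every array. Icam5 read 158.9, 163.1, 159.1 and 145.6, with overlap (-0.07, adjusted p = 0.9997). Icam2 read 108.9, 110.2, 107.0 and 122.4 (log2 fold change 0.06), with 2 of the arrays below their antisense median. Col1a2, a chain of collagen I, read 307.4, 350.9, 388.6 and 471.5 (log2 fold change 0.37, adjusted p = 0.12). Whether the falls of Itgal and Icam1 are linked was not tested.

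The other integrin chains did not pass either. Of 16 listed, 8 had values and 4 were tested, of which 0 passed and 0 had an unadjusted p under 0.05 in limma. Itgb7, whose product pairs with α4 in gut-homing leukocytes, read 1034, 1188, 1137 and 1398 (log2 fold change 0.18, adjusted p = 0.98). Itga5 encodes the fibronectin receptor chain α5 and read 165.1, 130.5, 125.1 and 154.6 (-0.07, adjusted p = 0.9997). The laminin receptor chain gene Itga7 read 229.9, 238.1, 228.5 and 200.9 (-0.12), and Itga3 read 129.0, 129.0, 132.9 and 106.7 (-0.10), both at adjusted p = 0.9997. Second tested probe sets of Itga7 (0.14) and Itga3 (0.06) had the opposite sign. Itga8, which encodes a chain of a matrix receptor, was dim at 61.2, 69.6, 49.8 and 45.5, below the antisense median on all arrays. It passed in the fit without a filter (limma adjusted p = 0.035), and no fold is given.

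No tested gene of integrin activation and the adhesion complex passed. Of 49 listed genes of inside-out activation and the adhesion complex, 27 were tested, 0 rose, 0 fell and 1 had an unadjusted p under 0.05 in limma. That was Gna13, a G protein α subunit that binds integrin tails, at 301.2, 253.4, 204.1 and 230.1 (log2 fold change -0.33, adjusted p = 0.12). Crkl, an adaptor of the adhesion complex, read 179.7, 209.3, 159.9 and 177.2 (-0.19, adjusted p = 0.73). For talin and kindlin, chosen here for their role, the brightest probe set of Tln1 read 1640, 1441, 1713 and 1410 (0.02; -0.07 for the other tested probe set), and Fermt3, the kindlin of blood cells, read 674.0, 748.0, 700.8 and 921.5 (0.18). The median of the list was 0.003, with a range from -0.33 to 0.19.

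Proteins that sit beside integrins in the membrane gave 0 calls among 16 tested of 22 listed (20 with values). Of the 16, 4 had an unadjusted p under 0.05 in limma (473 of 5002 over all genes), and the median was -0.01. Cd81, a tetraspanin, read 207.6, 227.7, 235.1 and 302.6 (log2 fold change 0.28, adjusted p = 0.28). Plaur encodes the urokinase receptor, which associates with αMβ2, and it read 647.9, 654.6, 487.4 and 534.6 (-0.34, adjusted p = 0.29). In each of these the KO arrays did not overlap the WT arrays, as in 35.2% of all 10649 probe sets. Plaur passed after quantile normalization (limma adjusted p = 0.026) and with the replicate block (0.011). Cd81 passed without KO replicate 1 (0.0070) and with the block (0.036).

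**Figure D4:**
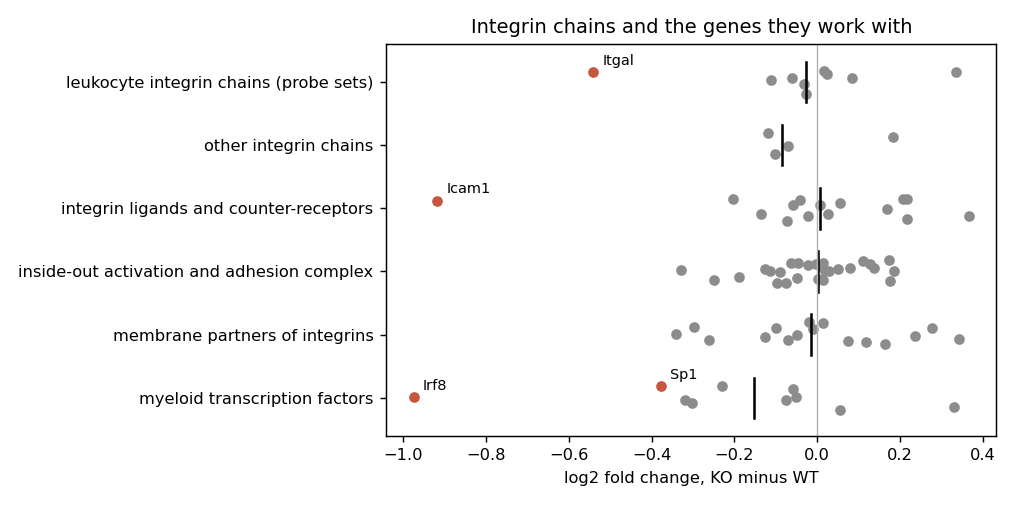
Log2 fold change (KO minus WT) of the 9 tested integrin probe sets and of the tested genes in 5 related lists, 1 point per probe set or gene. Black bars are medians, and red points have an adjusted p under 0.05 and carry the gene name. Itgal (-0.54), Icam1 (-0.92), Irf8 (-0.97) and Sp1 (-0.38) are the 4 red points, all on the lower side.

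Among 17 transcription factors of myeloid cells 10 were tested, 2 fell, 0 rose and 8 did not pass (6 of the 10 at an unadjusted p under 0.05 in limma), with a median of -0.15; over all 5002 genes 133 fell, 53 rose and 473 had such a p. Irf8, a factor of monocyte and dendritic cell development, fell 1.97-fold from 2305 and 2607 to 1143 and 1345 (log2 fold change -0.97, SE 0.16, adjusted p = 1.24e-07). Sp1, a widely expressed factor known to act with PU.1 at leukocyte integrin promoters, read 145.6, 146.8, 103.0 and 115.2 (-0.38, SE 0.11, limma adjusted p = 0.022), and KO replicate 1 was below its antisense median. The highest antisense control read 144.2, 156.7, 150.1 and 143.7, which is above Sp1 on all arrays but WT replicate 1. Irf8 lost its call without WT replicate 1 (adjusted p = 0.079) or WT replicate 2 (0.31), and Sp1 lost its own when WT replicate 1 (0.43), WT replicate 2 (0.51) or KO replicate 1 (0.23) was left out.

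Other cells of a lavage also carry these integrins, and their markers are given beside the result for Itgal. Of 18 T and NK cell markers, which mark cells rich in LFA-1, 13 had values, 8 were below the antisense median on all arrays, 0 were at 0 and 4 were tested, with 0 past the test and 0 at an unadjusted p under 0.05 in limma. Their summed signal was 2712 to 2847 in WT and 3048 to 3064 in KO. Il7r, a cytokine receptor gene, carried this difference: without it, an alternative chosen after seeing the data, the sums were 1377 and 1340 in WT and 1419 and 1258 in KO, which overlap. Il7r itself did not pass (1471, 1372, 1629 and 1806, limma adjusted p = 0.72). After quantile normalization 1 gene of this list rose, and Il7r passed in 1 of 14 settings, with a lowest limma adjusted p of 0.0034. Cd3e, a chain of the T cell receptor complex, read 131.9, 146.2, 167.4 and 147.1 (adjusted p = 0.87). The part of these cells in the Itgal result was not tested. Of 12 B cell markers 10 had values, 4 of them below the antisense median throughout, and their sum was 1529 to 1592 in WT and 1493 to 1528 in KO. Of its 6 tested members 0 passed and 0 had an unadjusted p under 0.05, with Ighm at 454 and 388 on average (adjusted p = 0.77) and Ms4a1 at 130 and 145 (adjusted p = 0.97).

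Neutrophils, rich in αMβ2, are marked by 14 genes of the list, 13 with values and 5 below the antisense median throughout, with a sum of 2186 to 2250 in WT and 2137 to 2185 in KO. Of 7 tested, 3 had an unadjusted p under 0.05 in limma (473 of 5002 over all genes), 1 rose (Mmp8, 187.1, 158.2, 255.9 and 274.2, limma adjusted p = 3.45e-05) and 1 fell (S100a8, 516.9, 542.2, 330.8 and 370.2, adjusted p = 0.0015). Both lost the call without WT replicate 2 (0.46 and 0.75), and S100a8 without WT replicate 1 (0.41). Dendritic cell markers, relevant to Itgax, had 9 of 12 with values and 2 below the antisense median throughout, and summed to 1675 to 1761 in WT and 1633 to 1683 in KO. Of 5 tested 0 passed and 0 had an unadjusted p under 0.05 in limma, with Batf3 at 222 and 192 and Ccl22 at 226 and 243 on average.

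Platelet markers, relevant to Itgb3, had 4 of 12 with values, 1 below the antisense median throughout, and summed to 806 and 806 in WT and 731 and 780 in KO. Of 3 tested 0 passed and 0 had an unadjusted p under 0.05 in limma, with Vwf at 336 and 305 and Gp1bb at 115 and 114. For mast cells, basophils and eosinophils 12 of 17 had values, 8 below the antisense median throughout, with sums of 1169 to 1188 and 1145 to 1257. Of 4 tested 0 passed and 0 had an unadjusted p under 0.05 in limma, with Tpsb2 at 314 and 334 and Gata2 at 121 and 121. Fibroblast and mesothelial markers, which mark cells rich in αV integrins, summed to 3004 to 3060 in WT and 3633 to 4071 in KO, over 17 of 18 with values and 6 below the antisense median throughout. All 8 tested had a higher mean in KO (2114 of 5002 over all genes), 6 at an unadjusted p under 0.05 in limma (473 of 5002). Of these 8, 1 rose, the proteoglycan gene Dcn (616.3, 560.9, 945.2 and 1060, adjusted p = 6.31e-05), which lost its call without WT replicate 1 (0.29) or WT replicate 2 (0.75), and Col6a1 read 219 and 279 (adjusted p = 0.11). In this list 4 rose after quantile normalization, 5 with the replicate block, 5 without KO replicate 1 and 2 without a filter or without the trend. The summed signal was higher in KO, as was Itgb5, and the part of these cells in the Itgb5 difference was not tested.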

How the data were processed

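The deposited table gives a linear intensity for every probe set on each array; the authors' summarisation, background correction and scaling are not given in the sources used. Of its 12488 rows, 10649 are probe sets with values, 1780 hold none and 59 are controls. The platform annotation names 1 gene for 9389, several for 341 and none for 919; all 16 probe sets of the 10 integrin genes name 1 gene. Array medians on the log2(intensity + 16) scale ran from 7.25 to 7.30, within 0.1, so no rescaling was done. Medians do not show an offset that varies with brightness. Replicate 2 minus replicate 1 of KO had a median of 0.21 in the brightest signal decile and -0.07 in the dimmest. For WT these were 0.06 and -0.01. Probe sets whose mean exceeded the 40th percentile entered the test (6389, for 5002 genes, each represented by its brightest kept probe set).

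The genotypes were compared with limma 3.58.1 under R 4.3.3 (lmFit, eBayes with intensity trend), two-sided, with Benjamini-Hochberg adjustment over all tested probe sets and a threshold of 0.05. The prior degrees of freedom were estimated as infinite, so the spread used for a probe set is that of the trend at its brightness, and very small p-values rest on that. The code was tested on simulated data. Each genotype has 2 arrays, whose number limits the precision, and no 2 arrays were identical.

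The integrin genes and the 13 gene lists (256 entries, 250 genes, of which 186 had values) were chosen with earlier results of these data known. Named genes are the members, Pparg, the tested other integrin chains, and per list the members that passed or, where fewer than 2 passed, the 2 with the smallest p; Icam2, Spi1, Tln1 and Fermt3 were added for their role, and Itga8, F11r and Icam5 after their values were seen. Protein sequences were not used here. The alternatives were quantile normalization, median centring, other filters, pseudocounts of 1 and 64, other variance estimates, a replicate block, each array left out, other thresholds, and, for the lists, averaging all probe sets of a gene. Plots used matplotlib 3.10.9 (Python 3.11.15).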

Additional observations from a re-analysis of the deposited data

How the results depend on the processing

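The number of integrin probe sets past the threshold was 1 as reported. It was 2 after quantile normalization and with the replicate block, Itgb5 100601_at being the addition, and 0 without moderation and with a 1.5-fold rule; leaving out single arrays gave 0 to 2. Over all probe sets 227 passed as reported, 419 after quantile normalization, 480 with the replicate block, 0 without moderation (388 at an unadjusted p under 0.05 in limma, against 605 with it) and 90 with a 1.5-fold rule, and 54 to 327 when single arrays were left out (54 without WT replicate 2, 72 without WT replicate 1). The Itgal log2 fold change stayed at -0.54 without moderation (adjusted p = 0.78), and leaving out single arrays gave -0.61 to -0.47 (adjusted p = 0.35 at the weakest).

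Replicate numbers are shared by the genotypes, but with 2 pairs the labels give no shared animal or day; the replicate 2 minus 1 differences of the genotypes correlated at 0.42 over tested probe sets. With the block Itgal kept -0.54 (limma adjusted p = 1.98e-07), and 1 dim probe set of Itga4, 102655_at, passed (adjusted p = 0.013).

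Of 196 values of the other 15 integrin probe sets under the alternatives, 179 kept their sign and side of the threshold, 4 newly passed and 13 turned in sign, all of these when 1 array was left out and none past the threshold. Leaving out single arrays gave, as lowest and highest, -0.12 and 0.052 for Itgam, -0.22 and 0.0020 for Itgax, -0.094 and 0.040 for Itgb2, -0.087 and 0.18 for Itga6, -0.20 and 0.078 for Itgb1 100123_f_at, -0.069 and 0.10 for Itgb1 100124_r_at, -0.053 and 0.10 for Itgav 104386_f_at and -0.022 and 0.10 for Itgav 104385_i_at. For genes outside the members these were -0.24 and 0.038 for Itga3, -0.22 and 0.083 for Itga5, -0.010 and 0.20 for Ccl22, -0.27 and 0.0013 for Vwf, -0.083 and 0.059 for Gp1bb and -0.19 and 0.16 for Gata2. Gp1bb turned to 0.020 after quantile normalization and 0.014 after median centring, and Gata2 to 0.022 and 0.012.

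Among the lists, 1 other integrin chain fell without a filter (Itga8, dim). In the ligand list 1 gene rose (Col1a2) after quantile normalization, without the trend, with the block and without KO replicate 1, and 0 fell without moderation. In the adhesion complex 1 fell (Gna13) with the block and without KO replicate 2. Of the membrane partners 2 rose and 1 fell after quantile normalization, 2 rose and 2 fell with the block, and single arrays left out gave 0 to 2 rises and 0 to 1 falls. Of the myeloid factors 1 rose after quantile normalization, with the block and with the mean of probe sets, and 4 fell with the block, 1 at the 60th percentile filter and 0 without moderation; single arrays left out gave 0 to 1 rises and 0 to 3 falls. The cause of these changes was not tested. The median of the myeloid factor list (-0.23 to -0.12) and that of the fibroblast and mesothelial list (0.11 to 0.39) kept their sign in every setting run, and the medians of the other 11 lists did not. Dim signal limits Itga4, Itga6 and Itgb3, whose log2 differences are not read as folds of RNA.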
